A study of Mus musculus with 18 samples.

Results

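Whole Ras-driven mouse glioma tissue was compared with tumour cells of the same driver grown in culture, to see which transcripts the tissue holds that cultured tumour cells lack, and the reverse. The comparison took 4 tumour libraries and 2 line libraries out of 18 samples in the series, chosen by their sample labels, and joined the tables of both on 35842 gene symbols. The tumours came from Boy/J mice and were driven by HRasV12 together with dominant negative p53. They grew from an implant, and the animals received vehicle by gavage each day from day 7 until they were moribund. The same libraries also carry the label untreated. The Ras lines are likewise labelled as Boy/J brain tumour cells. They were kept without serum in DMEM/F12 with EGF and FGF at 20 ng/mL. The labels do not say whether the lines came from these tumours, at which passage they were taken, or whether they are clones. RNA of tumours and lines was extracted in the same way, and both sets of libraries were made for DNB sequencing. Each condition has its own count table, so tissue against culture cannot be told apart from 1 table against the other.

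A glioma is a mixed tissue. Beside the tumour cells it contains microglia, which are the resident macrophages of the brain, macrophages and other leukocytes from the blood, vessels with their endothelial cells and pericytes, fibroblasts, red cells, and nearby astrocytes, oligodendrocytes and neurons. Microglia and macrophages depend on the receptor CSF1R, encoded by Csf1r, which binds the ligands CSF1 and IL-34. A culture in defined medium with growth factors favours cells that resemble neural stem cells and does not keep most of these other cells.

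Libraries held 31175551 to 34748040 counts in the tumours, 35802099 in line 1 and 31886816 in line 2. Correlations of log2 CPM (CPM is the count of a gene scaled to the total of its library) were 0.87 to 0.97 among tumours, 0.89 between the lines and 0.77 to 0.86 across the groups. Tumour 4 stood apart from the other tumours: after adding 1 CPM, 793 to 1619 genes differed over 4-fold between it and another tumour, against 83 to 251 among tumours 1 to 3. Between the lines, 1744 genes differed over 4-fold. Hras was at 141, 161, 143 and 167 CPM in tumours 1 to 4 and at 67.1 and 168 in the lines, and Trp53 at 239 to 336 against 229 and 291. Neither passed the test (adjusted p = 0.512 and 0.77). Counts per gene symbol do not separate the introduced alleles from the endogenous ones. Xist, transcribed from the inactive X chromosome, was at 361 to 696 CPM in the tumours, 1060 in line 1 and 1.41 in line 2, while the Y-linked Ddx3y was at 19.5, 26.8, 0.115 and 0.124 in tumours 1 to 4, 1.17 in line 1 and 64.9 in line 2.

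The edgeR quasi-likelihood test covered 19141 genes, and 1584 of them (8.28%) passed an adjusted p (Benjamini-Hochberg) of 0.05 and are named as called. Of all genes tested, 1078 (5.63%) were called higher in tumours and 506 (2.64%) higher in lines. These shares are the background for every count below. The 1078 genes called higher in tumours took up 4.01% to 5.3% of the counts of a tumour, 0.681% of line 1 and 0.613% of line 2. Their median log2 fold was 6.21, or 4.92 when the 281 genes at 0 counts in both lines were set at a floor of 3 counts per library. The 506 genes called higher in lines took up 6.81% and 8.34% of the line counts and 2.43% to 2.73% of the tumour counts, with a median size of 1.59 on the log2 scale. Of the calls, 976 in the first set and 171 in the second exceeded 4-fold.

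The number of calls moved with the libraries in the fit. It was 365 without tumour 1, 706 without tumour 2, 302 without tumour 3, 1805 without tumour 4, 3614 without line 1 and 1511 without line 2. In the fits without a line, the remaining one was assumed to vary like the tumours. In all 6 of these fits, 286 calls were kept, 257 higher in tumours and 29 higher in lines. DESeq2 called 4913 genes, and limma-voom with quality weights called 0, with 3747 genes at an unadjusted p under 0.05 and a smallest adjusted p of 0.0527. A permutation of 4 against 2 libraries cannot go below a two-sided p of 0.133. The labels number the tumours as Ms 1 to Ms 4 and the lines as Line 1 and Line 2, with 1 library each. They do not say whether the lines arose independently, and p-values measure only the spread between these libraries.

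A set of 137 genes stood at no less than 5 CPM in each tumour and at no more than 3 counts in each line. They are called tumour-only here and were chosen by these values, so their difference is a description. They make up 1.22% of the 11236 genes at 5 CPM or more in each tumour. The same limits turned round, with at most 3 counts in each of 4 tumours, found 0 line-only genes, although 10615 genes reached 5 CPM in both lines. The tumours also contain tumour cells, and absence was asked of 4 libraries and not of 2. The numbers 137 and 0 are therefore no like comparison. Just inside the limit were Dennd1c (lowest tumour 5.11 CPM), Treml2 (5.23) and Cysltr1 (5.36), and just outside were Sirpb1b (4.94), Tfec (4.75) and AI662270 (4.75). On the side of the lines, F13a1 and Nlrp3 missed the limit with 4 counts in a line. Of the 137 genes, 75 had 0 counts in both lines. Summed over the set, the tumours held 8020, 4720, 6540 and 5110 CPM. Tumour 1 held the most and tumour 2 the least. In bulk tissue, fewer cells of a type and less RNA per cell cannot be told apart.

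Spi1, which encodes PU.1, the factor that directs myeloid development, was itself tumour-only, so promoters were read for letters of a PU.1-type site. RefSeq promoters (GRCm38.p6) matched 96 of the 137 genes, with 111 promoters. Within 250 bases upstream of the start, GAGGAAGT or its complement ACTTCCTC was present in 13 of these 111 promoters (11.7%), against 802 of 32851 promoters in all (2.44%), 70 of 961 of genes called higher in tumours (7.28%) and 12 of 502 of genes called higher in lines (2.39%). The AP-1 letters TGACTCA, or the same run on the other strand, were in 7.21% of the tumour-only promoters, 4.46% of all, 5.93% of genes called higher in tumours and 1.39% of genes called higher in lines. The 12 genes with the PU.1-type letters include the near-identical copies Bcl2a1a, Bcl2a1b and Bcl2a1d, which share most of their upstream sequence, and a match of letters does not show a bound site. None of the 10 pan-leukocyte and myeloid marker genes with a promoter in the table had these letters in this window. Stretches from 4 promoters show how the letters sit in genes of different function: Vav1 relays antigen and integrin signals in blood cells, Pirb is an inhibitory receptor of myeloid cells, Mmp12 is macrophage elastase, and Bcl2a1b protects leukocytes from cell death. Capitals mark the match. They lie at chr17:57279044-57279099 (plus strand), chr7:3720450-3720547 (minus strand), chr9:7344264-7344361 (plus strand) and chr9:89199080-89199177 (plus strand), and the match starts 11, 120, 88 and 148 bases upstream of the gene start.
Vav1: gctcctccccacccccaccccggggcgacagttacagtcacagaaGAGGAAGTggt
Pirb: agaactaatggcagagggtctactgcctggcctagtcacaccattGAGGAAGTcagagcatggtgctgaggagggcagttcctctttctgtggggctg
Mmp12: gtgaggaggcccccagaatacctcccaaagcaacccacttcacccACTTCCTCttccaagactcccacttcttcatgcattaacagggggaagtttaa
Bcl2a1b: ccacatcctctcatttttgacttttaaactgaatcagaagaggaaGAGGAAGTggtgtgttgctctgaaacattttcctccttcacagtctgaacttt
In the same order, the genes with these promoters were at 18.6 to 44.1 CPM (Vav1), 13.5 to 30.7 (Pirb), 10.8 to 211 (Mmp12) and 25 to 56.7 (Bcl2a1b) in the tumours, and each had at most 2 counts in a line. Counts of Bcl2a1b are uncertain, since reads can be split among its copies.

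**Figure D1:**
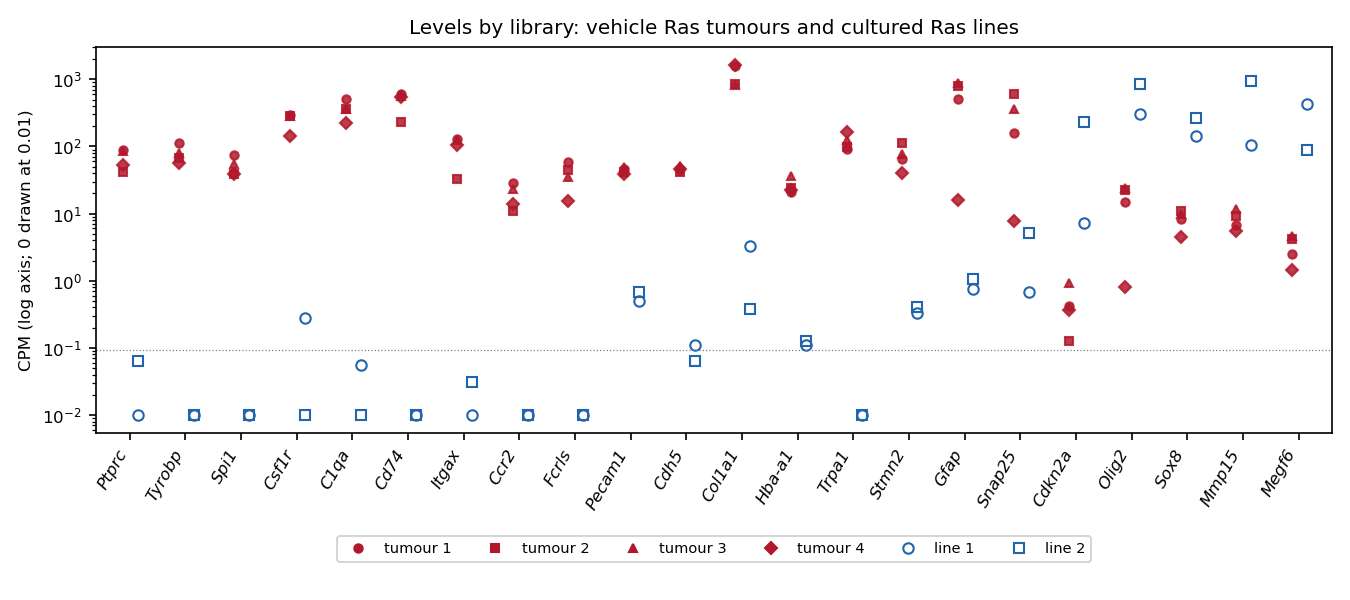
CPM of 22 genes (log axis, 0 drawn at 0.01) in each vehicle tumour (filled red) and each Ras line (open blue), with the dotted line at 3 counts in the smaller line library. Ptprc to Snap25 sit higher in every tumour and Cdkn2a to Megf6 higher in both lines, with the tumours close together for Cdh5 (41.7 to 51.5) and wide apart for Gfap (16 to 895).

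All 14 pan-leukocyte and myeloid markers were called higher in tumours, with a median log2 fold of 10.80, or 9.68 with genes at 0 set at the floor, beside 0.02 over all genes. Ptprc, the CD45 phosphatase of all leukocytes, was at 89.8, 42.1, 85.8 and 53.5 CPM in tumours 1 to 4, with 0 and 2 counts in lines 1 and 2 (adjusted p = 0.00436, edgeR). Tyrobp, the adaptor of many myeloid receptors, was at 111, 68.1, 79.7 and 56.5 CPM, and had 0 counts in both lines, so it was at least 838-fold higher. Spi1 was at 74.1, 39.2, 54.7 and 38.5 CPM and at least 548-fold higher. No tumour came near a line for these genes.

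Csf1r was at 293, 283, 282 and 142 CPM in tumours and had 10 and 0 counts in the lines (log2 fold 10.64, SE 1.19, adjusted p = 0.00816). Tumour 4 held the least. Of the ligands, Csf1 was at 256, 173, 236 and 243 CPM in tumours and 137 and 32.1 in lines (log2 fold 1.35, SE 0.61, adjusted p = 0.204), and Il34 at 30.3 to 50.6 against 27.3 and 2.95 (1.32, SE 0.84, adjusted p = 0.343). Neither ligand passed the test, although each tumour was above each line, as for 22.2% of all genes tested. Without line 1 the log2 folds were 2.86 for Csf1 and 3.79 for Il34, and without line 2 they were 0.63 and 0.46. The lines thus held transcripts of both ligands and almost none of the receptor. Cd68, a lysosomal protein of macrophages, was the marker with the highest level in the lines among the 14 (8.71 and 4.39 CPM against 92.1 to 167 in tumours, log2 fold 4.09, SE 0.48). Without 1 library, 12 to 14 of the 14 markers stayed called.

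Of the 10 called genes with the largest folds towards tumours (mean log2 CPM of 3 or more), all but Trpa1 and Mir5107 are genes of leukocytes. Cd74, the invariant chain of MHC class II, was at 605, 234, 555 and 552 CPM with 0 counts in both lines, at least 5170-fold higher. Cybb, the catalytic subunit of the phagocyte oxidase, was at 173, 78.7, 120 and 81.7 CPM. The inhibitory receptor gene Lilrb4a lay at 66 to 132 CPM, Ms4a6c at 54.5 to 143, Ms4a6d at 53.9 to 109, Cd53 at 56.8 to 106 and Cd52 at 44.8 to 105, again with 0 counts in both lines. Mir5107 (35.3 to 87.6 CPM) lies at the end of Cd74 on the same strand, on chromosome 18, so its counts cannot be told apart from those of Cd74. Ms4a6c, Ms4a6d and Lilrb4a have close paralogs, and their counts are uncertain in that sense. The call of each of these genes held in every fit without 1 library.

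Trpa1 was the exception among these genes, as an ion channel gene of sensory neurons that opens to irritants (chromosome 1, 14872648 to 14918862). It was at 91.4, 97.1, 123 and 165 CPM in tumours and had 0 counts in both Ras lines and in all 3 PDGF lines, at least 1270-fold higher in tumours. Tumour 4 held the most. In CD11b-positive cells isolated from PDGFB tumours it was at 5.21, 12.1 and 30.3 CPM, and in the tumours of mice given PLX3397 at 18.2, 114, 178 and 135. Tyrobp was at 58.1, 44.7, 11.4 and 21.4 CPM in the same PLX3397 tumours, highest where Trpa1 was lowest. Summed neuron markers were likewise highest in that tumour (4000, 1590, 1610 and 1640 CPM). A link of Trpa1 to either was not tested.

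Of 12 homeostatic microglia genes, 9 were called higher in tumours and 0 higher in lines, with a median log2 fold of 4.76. Fcrls, a microglial surface receptor gene, was at 59.4, 43.9, 34.7 and 15.6 CPM and had 0 counts in both lines, at least 408-fold higher (adjusted p = 0.00778). P2ry12, the ADP receptor of microglial processes, was at 24.6, 24.5, 30.2 and 5.11 CPM against 0.531 and 0.753. Tumour 4 was the lowest for both. Tmem119 was at 65.6 to 126 CPM in tumours and 8.04 and 0.69 in lines, without passing the test (log2 fold 4.29, SE 1.07, adjusted p = 0.0638). Sall1, a transcription factor of microglia and of other cells, went the other way without passing it, at 39.6 to 79.7 CPM in tumours and 67.7 and 101 in lines. The count of 9 fell to 2 without tumour 1, 3 without tumour 2, 2 without tumour 3 and 6 without line 2, and Fcrls was called in each of these fits. P2ry12 kept its call in the fit without tumour 4 and lost it in the others.

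Of 13 genes of monocyte-derived and border macrophages, 8 were called higher in tumours and 0 higher in lines (median log2 fold 7.55, or 6.88 with genes at 0 at the floor). Ccr2, the chemokine receptor by which monocytes leave the marrow, was at 28.4, 10.8, 23.6 and 14.1 CPM with 0 counts in both lines, at least 205-fold higher. Ms4a7, a gene of macrophages, was at 36, 16.1, 16 and 12.8 CPM, at least 215-fold higher. Arg1, arginase 1, was at 44.7, 22.3, 39.5 and 58.2 CPM against 0.251 and 0.439 (log2 fold 6.88, SE 0.65, adjusted p = 0.00546). These 3 calls held without any 1 library. Cd163, a haemoglobin scavenger receptor of border macrophages, had its highest levels in the lines, at 12.2 and 20 CPM against 0.341 to 10.6 in tumours, and did not pass the test (adjusted p = 0.282). The count of 8 fell to 4 without tumour 1 and 3 without tumour 3.

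Calls among genes of lymphocytes, neutrophils and dendritic cells depended on the tool and the libraries. Of the T cell genes tested 1 of 8 was called, the co-receptor gene Cd4 (3 to 7.46 CPM against 0.168 and 0). Its tumour mean was 6.22 CPM, against 1.2 for Cd3e and 0.985 for Cd3g, which did not pass the test. Which cells held Cd4 was not tested. Cd8a was at 2.94, 0.321, 4.26 and 0.558 CPM with 0 counts in both lines and did not pass the test (adjusted p = 0.0749). Of 7 natural killer cell genes edgeR called 0, although 6 had an unadjusted p under 0.05 and DESeq2 called 6, and Gzmb, the cytotoxic protease granzyme B, came nearest (0.642 to 9.58 CPM, 0 counts in both lines, adjusted p = 0.052). Of 9 neutrophil genes 3 were called, among them S100a9 (1.35, 1.8, 8.52 and 3.78 CPM, 0 counts in both lines), and Ly6g had at most 0.0576 CPM in a tumour. Of 4 B cell genes 2 were called, Jchain (3.56 to 14.1 CPM) and Cd79b (0.434 to 0.921), while Ms4a1 was too low to be tested. Of 6 dendritic cell genes 1 was called, Itgax (129, 32.8, 124 and 104 CPM, with 0 and 1 counts in the lines), which macrophages share. DESeq2 called 6 of the T cell genes, 7 of the neutrophil genes and 4 of the dendritic cell genes, and as many had an unadjusted p under 0.05 with edgeR. Without tumour 1 or tumour 3 edgeR called 0 of the T cell, neutrophil and B cell genes. It called more dendritic cell genes without line 1 than without line 2. The calls of Cd4, S100a9 and Jchain were each lost without tumour 1 and without tumour 3. Cd4 and S100a9 also lost theirs without tumour 2, and S100a9 without tumour 4.

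**Figure D2:**
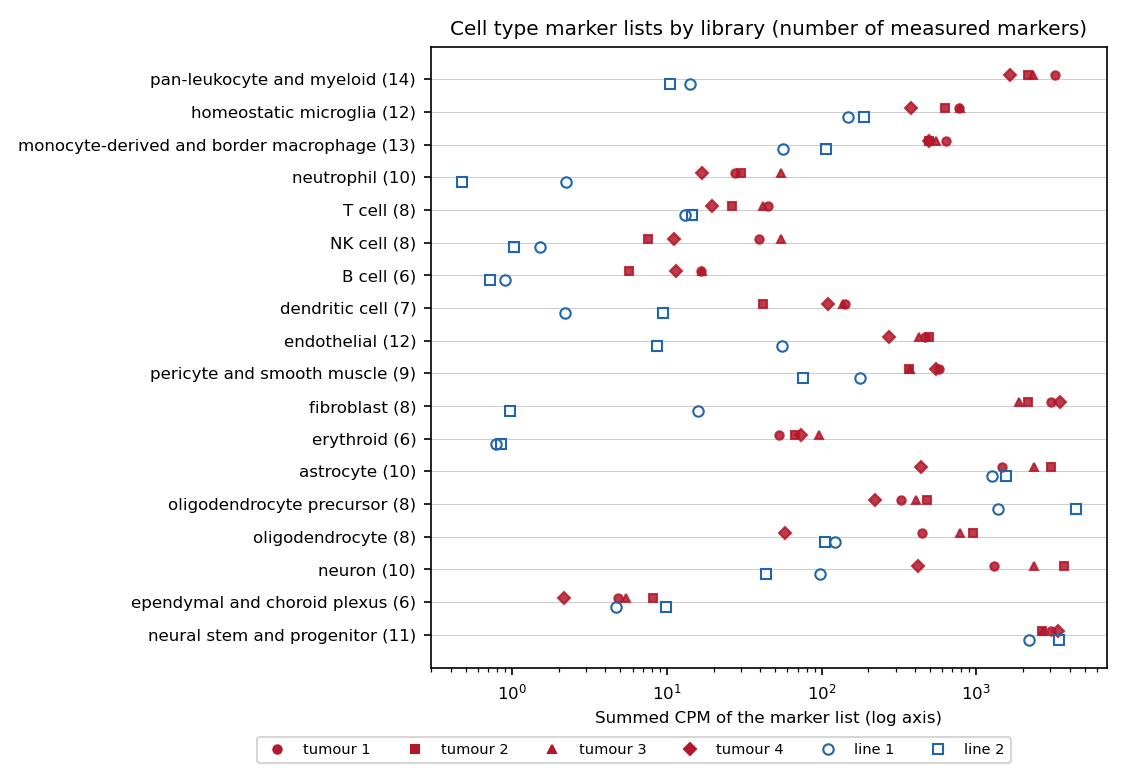
Summed CPM of each cell type marker list (log axis, number of markers in the tables in brackets) in vehicle tumours (filled red) and Ras lines (open blue). The pan-leukocyte list lies at 1660 to 3230 CPM in tumours against 14.1 and 10.4 in lines, while the stem cell list overlaps (2660 to 3360 against 2200 and 3420).

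Of 8 MHC class II genes, which present antigen to CD4 T cells, 7 were called higher in tumours, with a median log2 fold of 11.03 (9.58 with the floor). H2-Ab1 was at 238, 65.8, 215 and 219 CPM with 5 and 2 counts in the lines (log2 fold 10.72, SE 0.98, adjusted p = 0.00489), with H2-Aa at 225, 69.5, 216 and 199 CPM and H2-Eb1 at 153, 49, 149 and 149 CPM. Tumour 2 was the lowest for all 3. Of 9 MHC class I genes edgeR called 0, with 0 at an unadjusted p under 0.05 and 1 called by DESeq2, although 8 lay higher in every tumour, as 22.2% of all genes tested did (median log2 fold 2.20). Of the fits without 1 library, only that without line 1 called class I genes, all higher in tumours. H2-K1 was at 924, 526, 741 and 655 CPM in tumours, 358 in line 1 and 43.4 in line 2 (adjusted p = 0.227). By fold, line 1 was closer to each tumour than to line 2. H2 genes are a family of similar sequences, so single members are uncertain.

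Of 9 complement genes, 7 were called higher in tumours (median log2 fold 12.20, or 9.34 with the floor). C1qa and C1qb, chains of the C1q recognition protein that macrophages make, were at 517, 366, 360 and 227 CPM and 480, 351, 347 and 214 CPM, each with 2 and 0 counts in the lines. C3ar1, the C3a receptor, was at 86.7, 60.7, 65.9 and 30.5 CPM, at least 648-fold higher. Cfb, factor B of the alternative pathway, was detectable in the lines (2.07 and 2.54 CPM against 38.9 to 112, log2 fold 4.98, SE 0.59). In the fits without 1 library, 7 or 8 complement genes were called.

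Of 15 chemokine and colony-stimulating factor genes tested, 5 were called higher in tumours and 0 higher in lines. Cxcl16, a ligand for lymphocytes that myeloid cells make, was at 146, 66.9, 87.8 and 77.7 CPM against 0.587 and 0.753 (log2 fold 7.10, SE 0.50, adjusted p = 0.00413), and this call held without any 1 library. Ccl3 (2.63 to 6.14 CPM) and Ccl4 (3.72 to 9.98) had 0 counts in both lines. Ccl5 was at 8.49 to 21.2 CPM against 0.95 and 0.941. Ccl3 and Ccl4 lost their calls without tumour 3, and Ccl5 without tumour 1 or tumour 3. Of the list, 3 genes were called without tumour 1 and 1 without tumour 3, and DESeq2 called 10. Cxcl10, an interferon-induced ligand for T cells, was at 236, 32.9, 72.9 and 81.6 CPM against 3.02 and 10.9 and did not pass the test (adjusted p = 0.0722).

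All 14 interferon response genes lay higher in each tumour than in each line, a pattern that 22.2% of all genes tested shared, and 5 were called (median log2 fold 3.08). Oas1a, an antiviral synthetase, was at 64.1, 33.9, 68.7 and 29.9 CPM against 0.587 and 0.0627 (log2 fold 7.12, SE 1.07, adjusted p = 0.0177). Ifit1 was at 65.1 to 119 CPM against 16.2 and 8.75, and Rsad2 at 40.5 to 89.2 against 3.77 and 7.15. The number called was 1 without tumour 1, 3 without tumour 2, 0 without tumour 3 and 3 without tumour 4. It was higher without line 1 than without line 2. DESeq2 called 12.

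Of 12 in the disease-associated microglia list, 2 were called higher in tumours, Trem2 (40, 31, 21.4 and 7.84 CPM, with 2 and 0 counts in lines) and Clec7a (95, 16.8, 56.4 and 57.1 CPM, 0 counts in both lines, at least 599-fold higher), both receptors of phagocytes. Lpl, lipoprotein lipase, was called higher in lines (60.2 and 58.6 CPM against 6.51 to 18.6, log2 fold -2.07, SE 0.42, adjusted p = 0.0379). Apoe, a lipid carrier of astrocytes and macrophages, was at 1820, 1820, 1010 and 396 CPM against 44 and 187 without passing the test (adjusted p = 0.0689). Spp1, osteopontin, overlapped, at 1040 to 1950 CPM in tumours, 2840 in line 1 and 112 in line 2. The direction of Spp1 turned without line 1 (3.61 against -0.23 on the log2 scale), and it was then called higher in tumours (adjusted p = 0.0174). Trem2 lost its call without tumour 1 or tumour 3, Clec7a without tumour 3, and Lpl in every fit without 1 library except that without tumour 2. The number called higher in tumours was 1 without tumour 1, 0 without tumour 3, 4 without tumour 4 and 5 with DESeq2. It was higher without line 1 than without line 2.

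**Figure D3:**
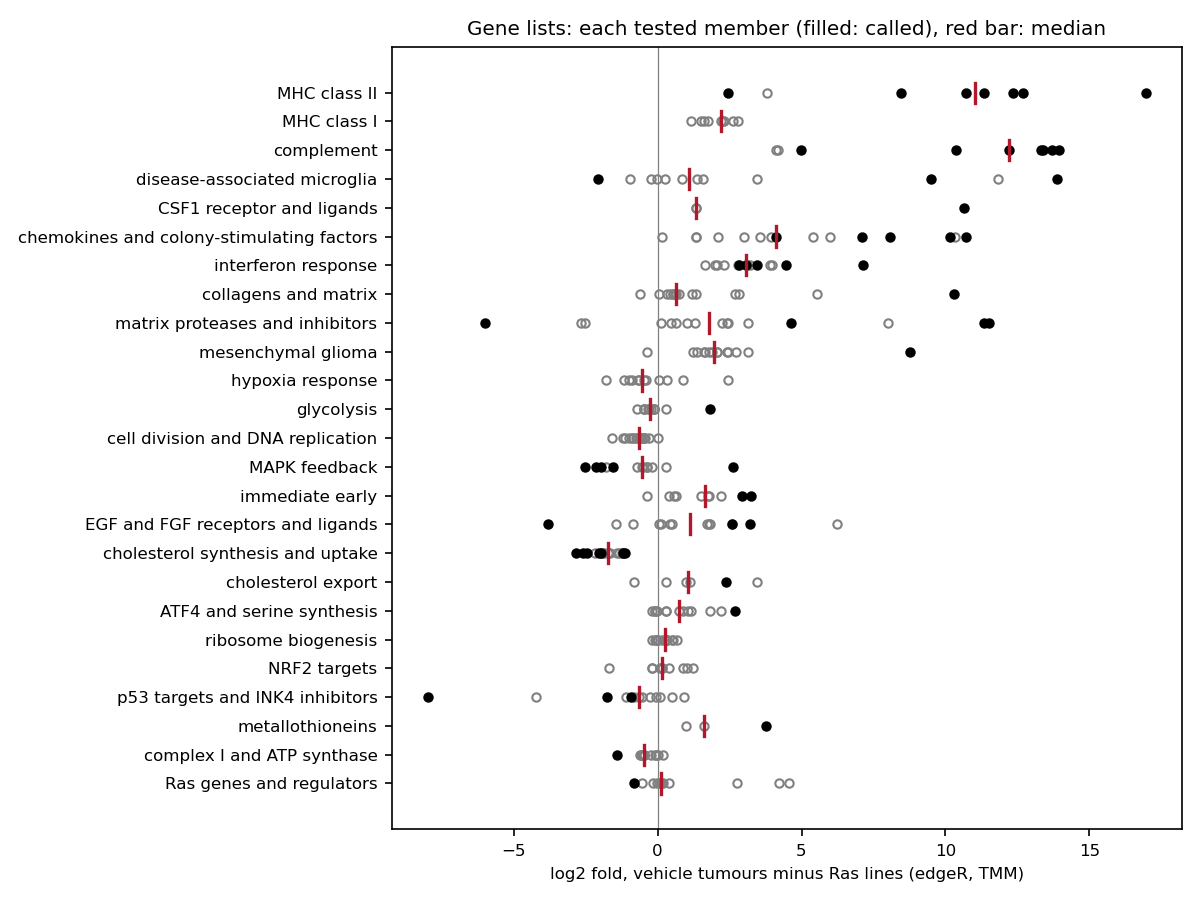
Log2 fold of each tested member of the pathway lists (horizontal axis, positive where tumours are higher), filled where called, with the list median as a red bar. Complement and MHC class II lie far to the right (medians 12.20 and 11.03), cholesterol synthesis to the left (median -1.71), and genes at 0 counts in both lines are shown at their fitted value, which is not a bound.

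Vessel genes were called higher in tumours for 9 of 12 endothelial markers (median log2 fold 6.34). Cdh5, the cadherin of endothelial junctions, was at 45.9, 41.7, 51.5 and 46 CPM against 0.112 and 0.0627 (log2 fold 8.93, SE 0.41, adjusted p = 0.00307), and Pecam1 at 46.5, 41.9, 49.4 and 38.9 against 0.503 and 0.69 (6.17, SE 0.29, adjusted p = 0.00307). The 4 tumours were close to each other for both genes. Genes of the blood-brain barrier varied more: Cldn5, the claudin of its tight junctions, was at 71.9, 69.9, 45.8 and 13.2 CPM with 0 counts in both lines, and the transporter gene Slco1a4 at 7.67, 31.3, 19.4 and 0.217. Tumour 4 was lowest for both. Slco1a4 did not pass the test (adjusted p = 0.0868). Without tumour 1 or tumour 3 the number of endothelial calls fell to 5 and 4, and Cdh5 and Pecam1 were among them.

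Of 9 pericyte and smooth muscle genes, 5 were called higher in tumours and 1 higher in lines. Abcc9, a subunit of the potassium channel of pericytes, was at 12, 13.5, 16.5 and 15.3 CPM against 0.112 and 0.314 (log2 fold 6.05, SE 0.59), and Acta2, smooth muscle actin, at 257, 69.2, 91.9 and 270 against 0.447 and 0.251 (8.90, SE 1.10). Pdgfrb was in line 1 at 121 CPM and in line 2 at 0.47, and the tumours lay at 79.9 to 172. Notch3, a receptor of pericytes that glioma cells also express, was higher in lines (41.9 and 70.9 CPM against 11.5 to 19.5, log2 fold -1.80, SE 0.27, adjusted p = 0.0176), a call lost without tumour 1 or tumour 3. Without either of these tumours, 3 genes of the list were called higher in tumours.

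Of 7 fibroblast genes tested, 5 were called higher in tumours and 0 higher in lines (median log2 fold 8.72, or 7.43 with the floor). Col1a1, the main chain of fibrillar collagen, was at 1590, 856, 819 and 1660 CPM against 3.32 and 0.376 (9.31, SE 1.30, adjusted p = 0.0153). Col3a1 was at 562 to 1280 CPM against 11.1 and 0.0627, without passing the test (adjusted p = 0.0704). Dcn, the proteoglycan decorin, was at 29.4, 30.9, 60.2 and 23.2 CPM with 2 and 0 counts in lines. Without tumour 1 or tumour 3 only 2 fibroblast genes were called, Dcn among them, and Col1a1 lost its call. Of 5 haemoglobin and red cell genes, 4 were called, with Hba-a1 at 21.2, 24.4, 35.8 and 22.7 CPM against 0.112 and 0.125. Globin genes are pairs of near-identical copies, so single members are uncertain.

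Of 15 collagen and matrix genes 1 was called (median log2 fold 0.65), against 12 without line 1, 2 without line 2 and 4 with DESeq2. The gene called with all libraries, Col8a1, a collagen of vessel walls, was at 174, 100, 96.8 and 167 CPM with 7 and 0 counts in lines (10.28, SE 1.12, adjusted p = 0.00768). Fn1, fibronectin, overlapped, at 1920 to 3700 CPM in tumours, 3610 in line 1 and 71.8 in line 2, and its direction turned without line 2 (-0.63 against 0.34 on the log2 scale). Among 16 proteases and inhibitors, 3 matrix metalloproteinases were called higher in tumours: Mmp12 (38.1, 10.8, 81.6 and 211 CPM, 2 and 0 counts in lines), the collagenase gene Mmp13 (129, 37.4, 261 and 652 CPM against 0.0559 and 0.125) and Mmp2 (15.6 to 95.5 CPM against 3.16 and 1.13). Tumour 4 held the most and tumour 2 the least of all 3. Mmp9 was also highest in tumour 4 (18.2, 14.5, 196 and 491 CPM) and did not pass the test (adjusted p = 0.0834). The calls of Mmp12, Mmp13 and Mmp2 were each lost without tumour 1, tumour 3, line 1 or line 2. The list had 0 calls towards tumours without tumour 1 or tumour 3, 2 without line 2, and 8 without line 1 and with DESeq2.

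Genes of neurons and mature glia were lowest in tumour 4 for the members named here, and the number called depended on that library. Of 10 neuron genes 1 was called, Stmn2, a tubulin-binding protein of growing axons (64.7, 113, 77.6 and 40.7 CPM against 0.335 and 0.408, log2 fold 7.58, SE 0.57, adjusted p = 0.00425). Snap25, of the synaptic fusion machinery, was at 156, 599, 362 and 7.87 CPM against 0.67 and 5.17 (adjusted p = 0.099). Of 10 astrocyte genes 1 was called, Gfap, the intermediate filament of astrocytes, at 509, 808, 895 and 16 CPM against 0.754 and 1.07 (9.19, SE 1.94, adjusted p = 0.0436). Of 8 oligodendrocyte genes 1 was called, the myelin gene Mag, at 16.6, 31.9, 27.7 and 1.18 CPM with 2 and 0 counts in lines. Mbp, myelin basic protein, was at 154, 369, 268 and 9.69 CPM against 0.698 and 4.52 (adjusted p = 0.0819). The calls of Gfap and Mag were lost in every fit without 1 library except that without tumour 4, while Stmn2 kept its call in all of them. Without tumour 4, 5 of the neuron genes, 4 of the astrocyte genes and 6 of the oligodendrocyte genes were called, and DESeq2 called 9, 4 and 7 with all libraries. The oligodendrocyte list summed to 446, 952, 782 and 57.6 CPM in tumours and 121 and 105 in lines, and the astrocyte list to 1460, 3020, 2340 and 441 against 1260 and 1560, so tumour 4 lay below both lines. The neuron list summed to 1300, 3690, 2350 and 418 against 97.6 and 43.7, and there tumour 4 lay above them.

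The 10 called genes with the largest folds towards lines (mean log2 CPM of 3 or more) included a cell cycle inhibitor, factors of glial progenitors and a ganglioside synthase. Cdkn2a, which encodes the inhibitors p16INK4a and p19ARF (chromosome 4, 89274471 to 89294653), was at 0.42, 0.128, 0.921 and 0.372 CPM in tumours and at 7.23 and 230 in lines (log2 fold -7.98, SE 1.37, adjusted p = 0.025). Every tumour was below every line, and the lines differed widely. Its neighbour Cdkn2b was at 0.24 to 2.48 CPM in tumours and 0.894 and 48 in lines, without passing the test (adjusted p = 0.124), and Cdkn2c, another inhibitor of the same family, at 58.8 to 71.2 against 112 and 127 (-0.94, SE 0.15, adjusted p = 0.0204). The p53 target gene Trp53inp1 was also higher in lines (177 and 136 CPM against 38.9 to 56.6, -1.75, SE 0.24), and the other 10 tested genes of that list did not pass the test. Cdkn2a and Cdkn2c lost their calls without tumour 1, tumour 2 or tumour 3. Of the list, 1 gene was called higher in lines without tumour 1, 1 without tumour 2, 0 without tumour 3, and 5 with DESeq2. More were called higher in lines without line 1 than without line 2.

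Of the progenitor genes, Sox8, a transcription factor of glial development, was at 8.3, 10.9, 10 and 4.52 CPM in tumours and 144 and 262 in lines (-4.62, SE 0.37, adjusted p = 0.00425), and its call held without any 1 library. Olig2, which sets oligodendrocyte and glioma stem cell identity, was at 15.1, 22.8, 24 and 0.805 CPM against 308 and 865 (-5.27, SE 1.11, adjusted p = 0.0438). Olig1 had the same direction without passing the test (adjusted p = 0.0815). The Notch ligand gene Dll3 was at 0.248 to 0.642 CPM against 1.51 and 104 (-6.77, SE 1.38). Sox10, a partner of Olig2 in oligodendrocyte cells, was by contrast at 0.922 and 0.533 CPM in the lines and at 11.3, 22, 26.2 and 0.465 in tumours (adjusted p = 0.137). The calls of Olig2 and Dll3 were lost without tumour 1, 2 or 3 and without line 2, and Dll3 also lost its call without tumour 4.

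Further genes with large folds towards the lines were Megf6 (433 and 88.2 CPM against 1.46 to 4.66, -6.45, SE 0.77), the membrane protease gene Mmp15 (104 and 952 against 5.51 to 11.7, -5.99, SE 0.81), Hhip, which binds hedgehog ligands (153 and 13.1 against 0.869 to 4.07), St8sia1, the synthase of the ganglioside GD3 (293 and 172 against 3.78 to 17.7), Clic5 (69.3 and 35.8 against 1.33 to 3.14) and the cadherin gene Cdh4 (134 and 213 against 1.49 to 16.5). Of these, Clic5 alone stayed called in every fit without 1 library. Of 11 neural stem and progenitor genes edgeR called 0, with 4 at an unadjusted p under 0.05 and 2 called by DESeq2. Sox2, a factor of neural stem cells, was at 202 to 234 CPM in tumours and 303 and 378 in lines (-0.67, SE 0.17, adjusted p = 0.0647). The tumours also hold transcripts of other cells (the pan-leukocyte markers summed to 1660 to 3230 CPM against 14.1 and 10.4 in lines), and the part of those cells in the lower tumour levels was not tested.

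The list with the most calls towards the lines was cholesterol synthesis and uptake. Of 17 genes, 7 were called higher in lines and 0 higher in tumours, and 16 lay higher in both lines than in any tumour, a pattern that 18.4% of all genes tested shared (median log2 fold -1.71, beside 0.02 over all genes). Lss, which closes the sterol ring system, was at 20.6, 26.9, 35.4 and 43.2 CPM in tumours and 234 and 204 in lines (-2.83, SE 0.34, adjusted p = 0.00942). Insig1, the sterol sensor that holds back SREBP, was at 47.1, 46.5, 62.3 and 93.1 CPM against 464 and 267 (-2.59, SE 0.41, adjusted p = 0.021). Hmgcs1, an early enzyme of the pathway, was at 86, 87.2, 134 and 177 CPM against 464 and 876 (-2.47, SE 0.41, adjusted p = 0.023). Tumour 4 was the closest to the lines for these genes.

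Mvd (-2.02, SE 0.24), Stard4 (-1.96, SE 0.42), Fdft1 (-1.21, SE 0.21) and Dhcr7 (-1.13, SE 0.15) were the other calls. Srebf2, the transcription factor of the pathway, was at 163 to 304 CPM against 556 and 410, without passing the test (adjusted p = 0.0822). The number of calls was 3 without tumour 1, 3 without tumour 2, 0 without tumour 3 and 15 without tumour 4, and DESeq2 called 16. Among 6 cholesterol export genes 1 was called, Mylip, a ubiquitin ligase induced by sterols (29.3, 27.4, 22.4 and 12.5 CPM in tumours against 4.72 and 3.79, log2 fold 2.37, SE 0.43, adjusted p = 0.0287). That call was lost without tumour 1, 2 or 3 and without line 2.

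**Figure D4:**
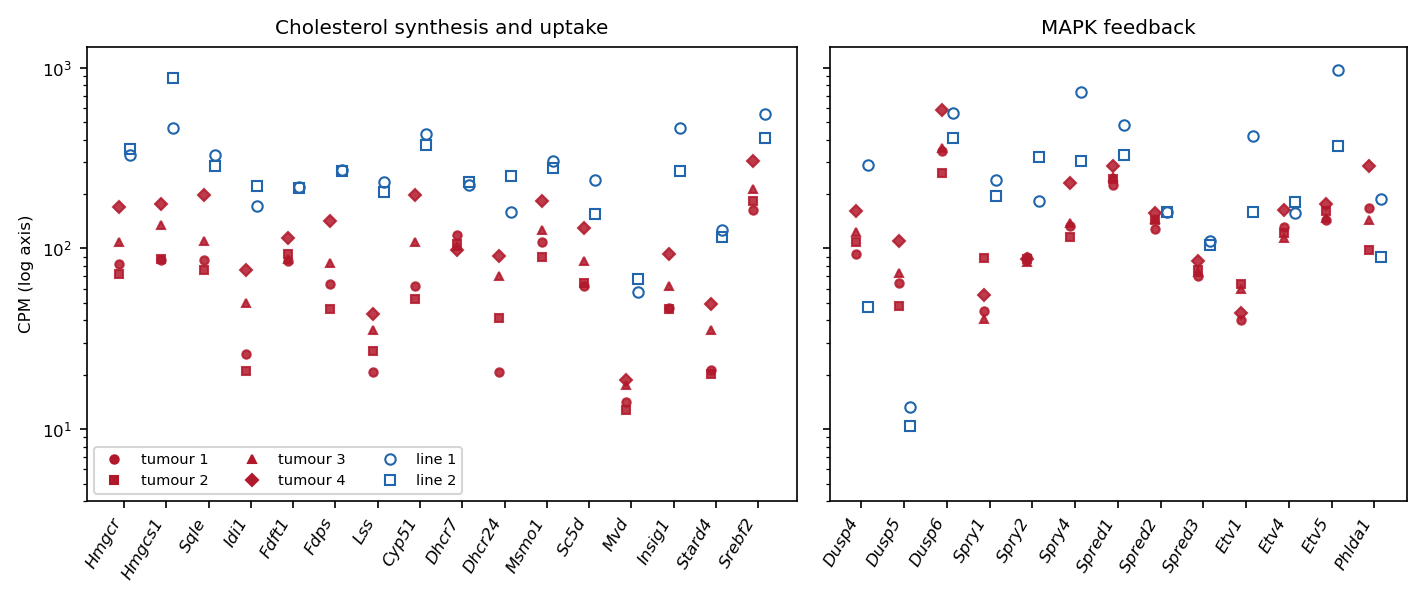
CPM (log axis) of the 16 genes of cholesterol synthesis and uptake whose groups do not overlap (left) and of MAPK feedback (right) in vehicle tumours (filled red) and Ras lines (open blue). On the left Lss lies at 20.6 to 43.2 in tumours against 234 and 204 in lines, and on the right Etv5 lies at 144 to 176 in tumours against 969 and 370.

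Feedback genes of the MAPK pathway, which Ras activates and whose transcripts the pathway itself induces, were split. Of 13, 4 were called higher in lines: Etv1 (417 and 158 CPM against 40.1 to 63.9, -2.54, SE 0.42), Etv5 (969 and 370 against 144 to 176, -2.15, SE 0.40), Spry1 (238 and 195 against 40.8 to 88, -1.95, SE 0.35) and Spry2 (184 and 321 against 84.5 to 89.4, -1.55, SE 0.22). The phosphatase gene Dusp5 was called higher in tumours, at 64.2, 47.8, 73 and 110 CPM against 13.3 and 10.4 (2.61, SE 0.45, adjusted p = 0.0252), and Dusp6 overlapped (260 to 583 against 564 and 407). All 5 calls were lost without tumour 1 or tumour 3. Of 10 immediate early genes 2 were called, both higher in tumours: Junb (194, 140, 156 and 274 CPM against 36 and 12.7, 2.92, SE 0.61) and Atf3 (9.53 to 34.3 against 2.32 and 1.79, 3.26, SE 0.70). Both calls were lost without tumour 1, 2 or 3 and without line 2, and Atf3 also without line 1.

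Among 14 genes of EGF and FGF signalling, the EGF receptor ligands Ereg (90.1, 72.9, 75.5 and 107 CPM against 12.4 and 5.61, log2 fold 3.21, SE 0.47, adjusted p = 0.0168) and Areg (59.6 to 101 against 16.6 and 9.63, 2.59, SE 0.44) were called higher in tumours. Fgf1 was called higher in lines, at 7.01, 15.5, 26.3 and 4.21 CPM in tumours and 156 and 200 in lines (-3.81, SE 0.66, adjusted p = 0.0256). The culture medium contained added EGF and FGF. Egfr was at 14.8 to 26.4 CPM in tumours, 1.82 in line 1 and 109 in line 2, and its direction turned without line 2, where it was called higher in tumours (log2 fold 3.37, adjusted p = 0.0302). Ereg and Areg lost their calls without tumour 1 or tumour 3, and Fgf1 without tumour 1, tumour 2 or line 2. Areg lost its call without line 2 as well.

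Of 17 cell division genes edgeR called 0, with 7 at an unadjusted p under 0.05 and 2 called by DESeq2, all higher in lines (median log2 fold -0.65). Calls higher in lines appeared without line 1 and not without line 2. The proliferation marker Mki67 was at 142, 130, 204 and 226 CPM in tumours and 346 and 690 in lines (-1.57, SE 0.35, adjusted p = 0.0505) and Top2a, of chromosome separation, at 176 to 292 against 341 and 649. edgeR also called 0 of 12 hypoxia genes, 13 ribosome biogenesis genes and 10 NRF2 targets, with 1, 0 and 3 at an unadjusted p under 0.05 and 1, 0 and 2 called by DESeq2. There was 1 call each among 12 glycolysis genes (Pfkp, higher in tumours), 14 mesenchymal glioma genes (Lgals3, 59.4 to 143 CPM against 0.112 and 0.314, log2 fold 8.76, SE 0.73), 13 genes of the ATF4 pathway (Trib3, higher in tumours), 3 metallothioneins (Mt2, higher in tumours), 13 genes of complex I and ATP synthase (Ndufa4, higher in lines) and 12 Ras genes and regulators (Nf1, 172 and 178 CPM in lines against 91.7 to 109, -0.83, SE 0.15, adjusted p = 0.0288). More mesenchymal genes were called higher in tumours without line 1 than without line 2. The same held for complex I and ATP synthase genes called higher in lines. DESeq2 called 7 and 3 of these lists with all libraries. Lgals3 kept its call without any 1 library, and Nf1 lost its call without tumour 1, 2 or 3. Counts of this design were simulated over 19141 genes with few of them changed. The test found 0 of 67 genes changed 2-fold, 1 of 67 changed 4-fold and 10 of 66 changed 8-fold. Many more genes were called in the data (1584), Nf1 at a log2 fold of -0.83 among them. The simulated shares therefore do not give the detection limit there, and lists with 0 calls can still hold changes that were missed.

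The lines differed from each other in several of these programmes. The hypoxia list summed to 4680 CPM in line 1 and 514 in line 2, on either side of the tumours (1420 to 3610), with Car9 at 260 and 0.22 and Vegfa at 810 and 129 in lines 1 and 2. The matrix list summed to 9640 and 2750, and MHC class I to 1670 and 210. Line 2 was higher for Ptprz1, a phosphatase of glial progenitors (1780 against 44.1 CPM), and Egfr. With 1 library each, the lines have no replicate check on these differences. Within the tumours, tumour 4 held the most Car9 (101 CPM against 11.9 to 25.6).

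The tumour-only genes were then read in libraries that had not been used to choose them. Some of these libraries came from mice given PLX3397 at 100 mg/kg. Dosing started on day 7 after implantation for Ras tumours and on day 14 for PDGFB tumours. In the Ras tumours of mice given PLX3397, a CSF1R inhibitor, 62 of the 137 were at 5 CPM or more in each of 4 libraries, against 97.8% of the other 11099 genes present in each vehicle tumour. Their sums were 3680, 2990, 1550 and 2400 CPM, all below the lowest vehicle tumour (4720). The rule asked for 5 CPM in each vehicle tumour and not in these libraries, so the choice favours the vehicle values in both sets. The sets were not matched for level, so the 2 shares do not show a loss particular to tumour-only genes. The 3 PDGF lines were grown in another medium that also had PDGF. There, 27 of the 137 had at most 3 counts in each line, and 0 reached 5 CPM in every line. Of the 11099 others, 66 (0.595%) had at most 3 counts in each line. By the rule, each of these others had more than 3 counts in at least 1 Ras line. Their low share in other lines therefore follows in part from the choice and is no check of the set. PDGF line 3 stood apart: C1qa was at 19.5 CPM in it and at 0.234 and 0.122 in the other PDGF lines, and Tyrobp at 15.5 against 0.117 and 0.122. Col15a1, a basement membrane collagen, was at 115 CPM in PDGF line 2. In CD11b-positive cells isolated with beads from PDGFB tumours (1 library from a mouse given vehicle and 2 from mice given PLX3397, prepared with another kit), 128 of the 137 genes are listed, and 119 of these (93.0%) were at 5 CPM or more in each of 3 libraries. Of the others, 10331 are listed and 9011 of these (87.2%) were. Some listed tumour-only genes fell below that level in 1 or more of the CD11b-positive libraries. Among them were Robo4 (4.5 CPM with vehicle, 8.37 and 20.2 with PLX3397) and Adcy4 (4.11, 8.48 and 14.5), genes of endothelial cells. The Notch target Heyl and the procollagen protease gene Adamts2 were others. The endothelial genes Cldn5 (16.6, 38.5 and 56.4 CPM) and Tie1 (7.42, 15.2 and 28.1) stayed above it in all 3.

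**Figure D5:**
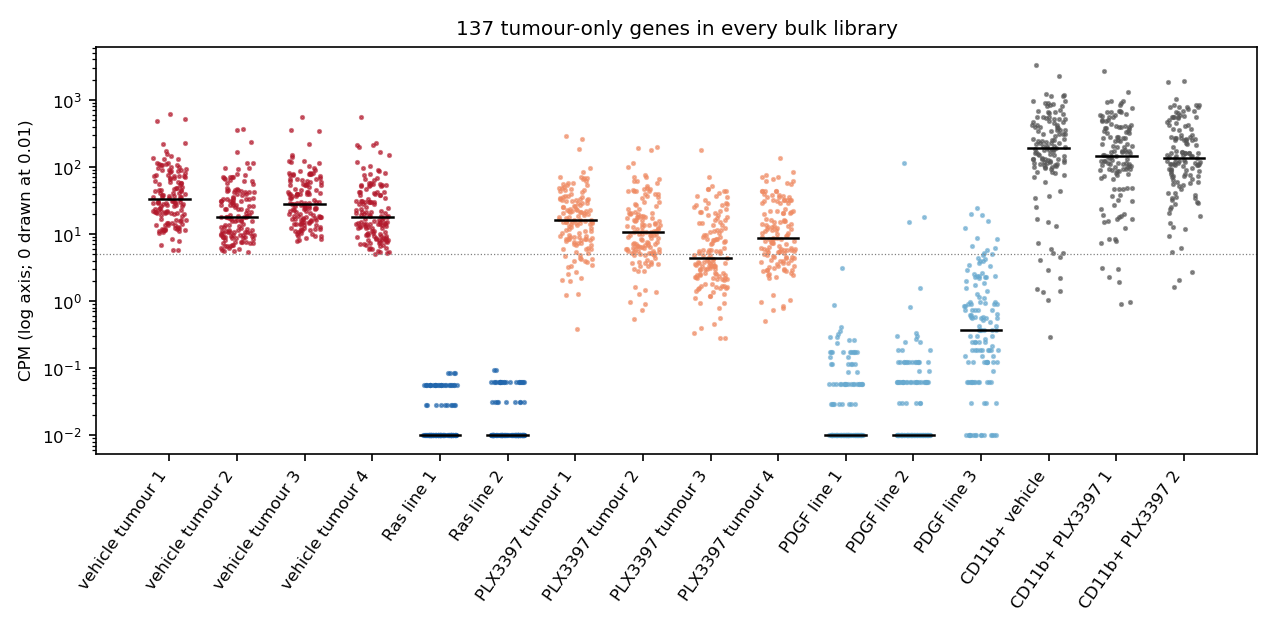
CPM (log axis, 0 drawn at 0.01) of the 137 tumour-only genes, 1 point a gene, in every bulk library (128 of them in the CD11b-positive cells), with the median as a black bar and 5 CPM as a dotted line. The vehicle tumours and Ras lines chose the genes, and among the other libraries PDGF line 3 lies above the PDGF lines 1 and 2. Of the 128 genes, 93.0% are at 5 CPM or more in each CD11b-positive library. Of the other listed genes present in each vehicle tumour, 87.2% are.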

How the data were processed

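RNA was sequenced from 4 Ras tumours of mice given vehicle and 2 Ras tumour lines. The authors deposited raw counts per gene symbol in 1 table for the tumours and 1 for the lines. The submitters' processing notes list the counter featureCounts 1.6.2, the aligner STAR 2.6.1e and the build GRCm38, beside FastQC 0.11.7 and the trimmers cutadapt 1.9.1 and Trim Galore 0.4.2, without saying which library each served. The 27 entries per table whose names had become dates were left out (at most 0.281% of a tumour library and 0.36% of a line library), as were 5 columns that match no sample. No mitochondrial (mt-) genes are listed in either table. Small counts (1 to 10) were even more often than odd (62.8% to 69.4% in tumours, 64.3% to 67.0% in lines, 39.9% to 41.9% in the CD11b table), so 3 counts may be fewer fragments. The cause was not tested.

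The counts were tested in R 4.3.3 with edgeR 4.0.16 (filterByExpr, TMM scaling, robust quasi-likelihood fit over these 6 libraries, tumour against line), adjusted by Benjamini-Hochberg over 19141 genes. Log2 folds are tumour minus line, and printed CPM use library totals. Totals of 31175551 to 35802099 counts set a floor of 3 counts per library (0.0941 CPM in the smaller line library), and genes at 0 in both lines are given as lower bounds against it. Floors cover counting error only. The script was tested on simulated data. Alternatives were DESeq2 1.42.0, limma 3.58.1 with voom quality weights, other scalings and filters, a replicate block, all 13 tumour and line libraries, and each library left out. The named genes were the 10 called with the largest log2 fold in each direction, up to 4 members of each list with the smallest adjusted p, the 10 most abundant tumour-only genes, and a set of driver, cell marker and sex-linked genes. Other genes named, such as members of a list that did not pass or that overlapped, were chosen after their values were seen. The members and lists were chosen with earlier results of these data known. Single-cell libraries were not used here. Promoters came from RefSeq (GRCm38.p6). Values of a few genes in the lists are not reported here.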

Additional observations from a re-analysis of the deposited data

Results flagged for a closer look

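A gap test on the 4 tumours compares the distance of the highest or lowest library to its neighbour with the whole range. It picked 15 of 188 genes and list sums examined (7.98%), where chance picks about 1 in 20 of unrelated items. The items here are related to each other, and some were chosen after their values were seen. The 2 shares are therefore no test of chance. Tumour 2 was far below the others for 4 MHC class II genes, with ratios of 0.857 for Cd74, 0.833 for H2-Aa, 0.869 for H2-Ab1 and 0.96 for H2-Eb1. Tumour 4 was the lowest for Csf1r (0.93) and Cd4 (0.916). It was the highest for Emilin2, a matrix glycoprotein gene (0.915, 36.1 CPM against 30.4 to 30.9), for Car9 (0.846), Fn1 (0.88) and Spp1 (0.87), and for the summed hypoxia (0.833), MAPK feedback (0.833) and EGF and FGF (0.867) lists. Tumour 1 was the highest for Ms4a7 (0.857, 36 CPM against 12.8 to 16.1), and tumour 2 for the summed metallothioneins (0.869, 558 CPM against 336 to 365).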

How the results depend on the processing

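The 1584 calls (1078 higher in tumours, 506 higher in lines) came to 4913 (3171 and 1742) with DESeq2, 4092 (2280 and 1812) with 13 libraries in the fit, and 0 (0 and 0) with limma-voom quality weights. Without 1 library they ranged from 302 to 3614 (266 to 2424 higher in tumours, 36 to 1190 higher in lines). Every call of the first fit that was tested again kept its direction in all of these settings. The share of calls higher in tumours was 68.1%, and 55.7% with 13 libraries, 87.4%, 80.9%, 88.1% and 77.2% without tumours 1 to 4. The median log2 fold of all genes, 0.02, rose to 0.14 with no filter and to 0.17 without line 1. Other scalings gave 1532 to 1556 calls.

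Tumours 1 and 2 share only a number with lines 1 and 2 (correlations of their deviations 0.04 and 0.24), so the replicate block is no pairing by design. With the block edgeR called 0 genes (0 higher in tumours, 0 higher in lines), with 3360 at an unadjusted p under 0.05 and a smallest adjusted p of 0.064.

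Tumour-only genes numbered 87 with 10 CPM as the limit, 265 with under 0.5 CPM as absent and 137 to 280 without 1 library. Line-only genes numbered 1 with under 0.5 CPM as absent (Gm11734) and 0 to 3 without 1 library. Genes whose groups did not overlap numbered 8113 to 13640 without 1 library, against 7778.

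Some log2 folds turned direction, all of list medians or of genes that were not called with all 6 libraries. In the turned direction, Spp1 and Xist passed the test without line 1 (adjusted p = 0.0174 and 0.00321, edgeR) and Egfr without line 2 (0.0302). With the replicate block these were Tmem212 (0.251), Trp53 (-0.041), Egfr (0.359), Xist (3.169), Ddx3y (1.296), Myc (-0.22) and Spp1 (0.905), and the medians of the lists ependymal and choroid plexus (0.093), ribosome biogenesis (-0.145) and Ras genes and regulators (-0.046). With voom quality weights they were Egfr (0.251), Xist (3.599) and Spp1 (0.983), and the median of the list hypoxia response (0.084). Without 1 library, these log2 folds ranged across 0: Cd79a -0.148 to 0.703, Ptprz1 -5.173 to 0.042, Ttr -1.845 to 1.113, Foxj1 -1.189 to 0.493, Tmem212 -2.053 to 2.496, Egln3 -1.632 to 0.776 and Pdk1 -2.056 to 1.423. Further ranges were Vegfa -1.797 to 0.981, Tpi1 -0.853 to 0.055, Gpi1 -1.077 to 0.506, Pgk1 -0.939 to 0.18, Hras -0.107 to 1.092, Trp53 -0.021 to 0.224 and Egfr -2.409 to 3.369, and then Pdgfra -2.038 to 0.858, Xist -1.283 to 8.393, Ddx3y -2.484 to 3.188, Myc -0.142 to 0.682, Spp1 -1.181 to 3.611 and Fn1 -0.632 to 5.148. List medians ranged as follows: ependymal and choroid plexus -0.859 to 0.598, hypoxia response -1.382 to 1.776, glycolysis -0.786 to 0.82, ribosome biogenesis -0.061 to 0.462, NRF2 targets -0.036 to 0.392 and Ras genes and regulators -0.05 to 0.33. The cause was not tested.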
